A study of Rattus norvegicus with 8 samples.

Results

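Kinesins are motor proteins that walk along microtubules, and 9 of their genes are described here in glia with few and with many lipid droplets. The 9 genes were picked by name, 5 because their motors work in cell division (Kif14, Kif15, Kif18a, Kif20b and Kif23) and 4 because their motors carry cargo in neurons (Kif1a, Kif3c, Kif5c and Kif21b). They are 9 of the 1187 genes that the authors called as different between the groups. They were chosen from that same comparison, so their calls and directions are a description and carry no test here. Both groups came from glia of the rat hippocampus at postnatal day 0, grown with 10% fetal bovine serum, used at 3 to 5 days in vitro and stained with Nile red, which lights up neutral lipid. A cell sorter separated them into 4 droplet-poor (LD-low) and 4 droplet-rich samples (LD-high). The labels number the samples of a group and do not name the animals or cultures behind them, so the authors' p-values may measure technical spread. The sort was on dye and not on a cell type marker.

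The deposited tables hold 1 level per gene and group, taken here as FPKM (fragments scaled by transcript length and by how many fragments were mapped), with a p and a q. Values of single samples were not analysed here, so levels are given without SD or n, and sample depth is unknown. A gene is called where the authors' q, their p adjusted over all genes tested, lies below 0.05. They called 639 genes higher in LD-high glia, 4.92% of the 12981 genes tested, and 548 lower, 4.22%. The median log2 change (LD-high over LD-low) was 1.13 among higher and -1.40 among lower genes.

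Dividing cells use kinesins to build the spindle, to hold chromosomes at its middle and to finish the cut between the daughter cells, and these genes are mostly transcribed late in the cell cycle. Neurons, which do not divide, use other members of the family to move vesicles, organelles and RNA along axons and dendrites. A level over a culture does not separate the number of cells of a type from the RNA per cell, and fewer cells and less RNA per cell cannot be told apart here.

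The 5 mitotic kinesins were higher and the 4 neuronal transport kinesins lower in LD-high glia. In the authors' deposited table the mitotic genes rose between 1.73-fold and 2.71-fold. The neuronal genes fell to between 24.8% and 43.8% of their LD-low level. With 5 of 5 and 4 of 4 called, beside 4.92% and 4.22% of all tested genes, the counts follow from how the genes were picked. The medians of the log2 change were 0.89 for the mitotic and -1.28 for the neuronal genes, each nearer to 0 than the median of all called genes in its direction.

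Kif20b, a motor of late cytokinesis and abscission, had the largest rise of the mitotic members. It lies on chromosome 1, 253221812 to 253275490, in rn6 (ENSRNOG00000018929) and rose in the authors' deposited table from 6.81 to 18.4 FPKM (q = 0.00187, log2 change 1.44). Its change ranked 202 of the 633 higher genes with a level above 0 in both groups. Kif18a, which damps the movements of chromosomes at the middle of the spindle, rose in the authors' deposited table from 8.88 to 19.6 FPKM (q = 0.0102, log2 change 1.14). It lies on chromosome 3, 100366168 to 100427030 (ENSRNOG00000005037). These were the 2 mitotic members whose levels more than doubled.

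The other mitotic members rose by less. Kif15, which helps to keep the poles of the spindle apart, rose in the authors' deposited table from 9.54 to 17.7 FPKM (q = 0.0274, log2 change 0.89; chromosome 8, 132029621 to 132103927, ENSRNOG00000060356). Kif14, a motor of cytokinesis that binds citron kinase and PRC1, rose in the authors' deposited table from 5.99 to 11.04 FPKM (q = 0.0386, log2 change 0.88; chromosome 13, 53351717 to 53420111, ENSRNOG00000037211). Its q was the nearest of the 9 to the threshold of 0.05, and genes just outside the threshold were not used here. Kif23, the motor subunit of the centralspindlin complex that bundles microtubules between the separating chromosomes, rose in the authors' deposited table from 21.5 to 37.04 FPKM (q = 0.0270, log2 change 0.79; chromosome 8, 66866082 to 66893196, ENSRNOG00000014080). Kif23 had the highest level of the mitotic members in both groups and the smallest ratio between them, ranking 570 of 633. In FPKM its difference, 15.6, was the largest of the 5.

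At a q below 0.01, which 2.29% of tested genes passed as higher, Kif20b was the 1 mitotic member left. The q of Kif18a was 0.0102, just outside. With a log2 change of at least 1 as the rule, which 3.10% of tested genes passed as higher and 3.14% as lower, Kif18a and Kif20b were left. The neuronal members passed both rules. All 4 had a p of 5e-05, the smallest in the tables and shared by 348 genes, and 1.98% of tested genes were lower at a q below 0.01.

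**Figure D1:**
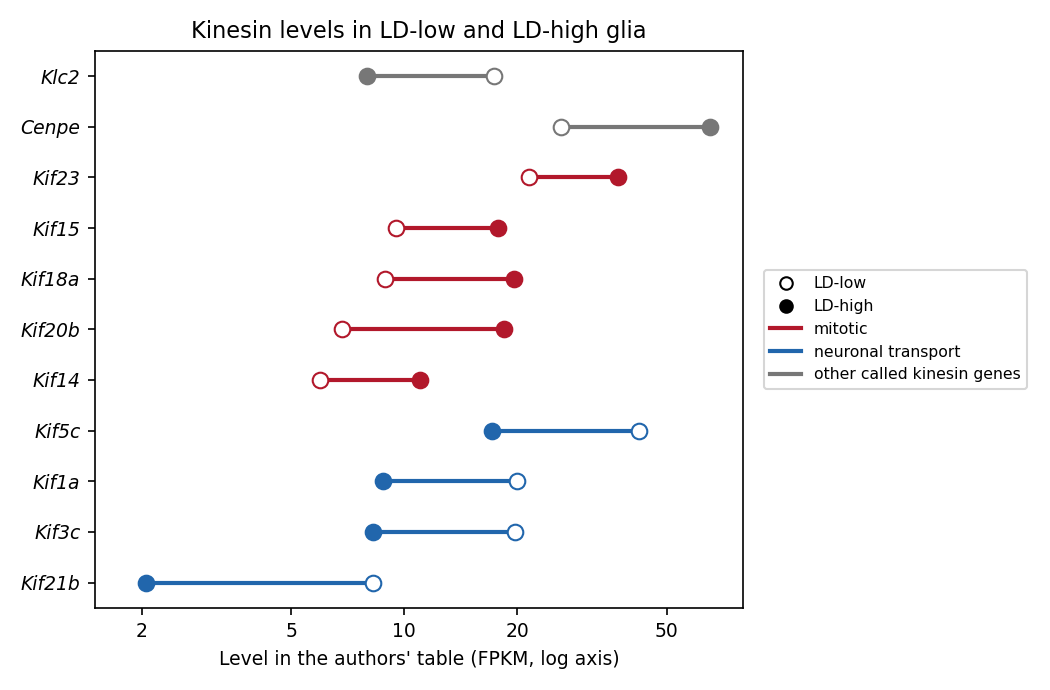
Levels of the 9 kinesins and of Cenpe and Klc2, the other called genes of the family, in LD-low (open) and LD-high glia (filled), as the authors' level per group in FPKM on a log axis; no spread between samples is shown because each group has 1 deposited level. The mitotic genes (red) shift to the right and the neuronal transport genes (blue) to the left, with Kif21b moving farthest, from 8.28 to 2.05 FPKM.

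Among the neuronal members Kif21b, a motor of axons and dendrites that also affects microtubule growth, fell most. It went in the authors' deposited table from 8.28 to 2.05 FPKM (q = 0.00187, log2 change -2.01) and lies on chromosome 13, 52976507 to 53023103 (ENSRNOG00000008471). It ranked 138 of the 528 lower genes with a level above 0 in both groups. Kif5c, a neuron-enriched heavy chain of conventional kinesin, fell in the authors' deposited table from 42.2 to 17.2 FPKM (q = 0.00187, log2 change -1.30; chromosome 3, 35014538 to 35257407, ENSRNOG00000004680). It had the highest LD-low level of the 9 genes, and it dropped by 25.01 FPKM, the largest difference among them.

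Kif3c and Kif1a had nearly the same pair of levels. Kif3c, a kinesin-2 motor that is abundant in neurons, fell in the authors' deposited table from 19.8 to 8.25 FPKM (q = 0.00187, log2 change -1.26; chromosome 6, 27768943 to 27815611, ENSRNOG00000011394). Kif1a, which carries precursors of synaptic vesicles and dense core vesicles, fell in the authors' deposited table from 20.02 to 8.78 FPKM (q = 0.00187, log2 change -1.19; chromosome 9, 100171772 to 100253609, ENSRNOG00000023993). Kif5c, Kif3c and Kif1a kept 40.7%, 41.8% and 43.8% of their LD-low level, a narrow range, while Kif21b kept 24.8%.

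The order of the levels changed between the groups. In LD-low glia the 4 highest of the 9 were Kif5c, Kif23, Kif1a and Kif3c, so that 3 of the 4 were neuronal. In LD-high glia the 4 highest were Kif23, Kif18a, Kif20b and Kif15, all mitotic. As the genes were picked with the mitotic ones higher and the neuronal ones lower, a shift toward mitotic genes follows from the choice. Without a spread between samples, it cannot be said which neighbours in either order differ. Kif18a, Kif20b, Kif15 and Kif5c lay within 17.2 to 19.6 FPKM in LD-high glia, and Kif1a and Kif3c within 8.25 to 8.78 FPKM.

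Added up, the 5 mitotic members went in the authors' deposited table from 52.7 to 103.9 FPKM and the 4 neuronal members from 90.2 to 36.3 FPKM. The mitotic members made up 36.9% of the summed level of the 9 genes in LD-low and 74.1% in LD-high glia. A larger mitotic share in LD-high glia was likewise fixed by how the 9 genes were picked. The neuronal sum was 1.71 times the mitotic sum in LD-low glia, and the mitotic sum was 2.87 times the neuronal sum in LD-high glia. FPKM is scaled by transcript length, so the levels can be added, but the sums give most weight to Kif5c and Kif23. Counted with Cenpe, which is not among the 9, the mitotic sum went in the authors' deposited table from 78.9 to 169 FPKM. Kinesins that were not called have no level here, so the balance of all mitotic and neuronal kinesins is unknown.

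**Figure D2:**
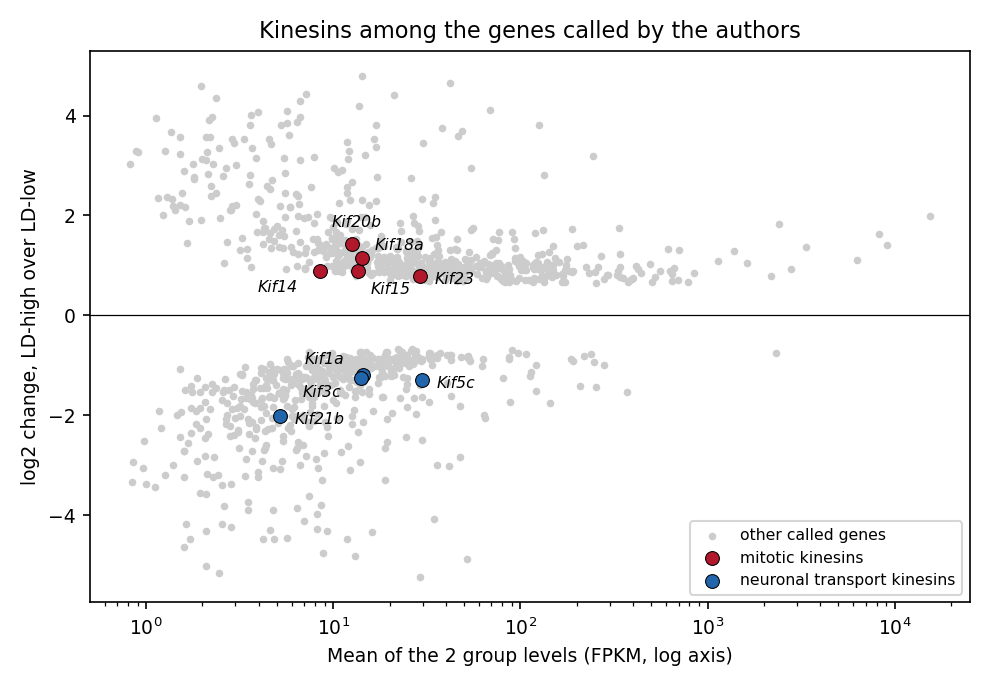
The log2 change of each called gene with a level above 0 in both groups (grey) against the mean of its 2 levels in FPKM on a log axis, with the 9 kinesins marked. The changes of the kinesins run from -2.01 to 1.44, while those of all called genes reach from -5.25 to 4.80.

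Beyond the 9 genes, 1 other kinesin motor was called. Of 44 symbols of kinesin motors 10 were called, 6 higher and 4 lower, and 34 were not among the called genes, which means that they did not pass or were not tested. As 9 of the 10 were picked for being called, the count bears on the other 35 symbols, of which 1 was higher (2.86%, beside 4.92% of all tested genes) and 0 lower (beside 4.22%). The gene beside the 9 was Cenpe, a kinetochore motor that brings chromosomes to the middle of the spindle, which rose in the authors' deposited table from 26.2 to 65.1 FPKM (q = 0.00187, log2 change 1.31). Cenpe had a higher level than Kif23 in both groups. The other 10 mitotic symbols, among them Kif11, the main motor of pole separation, and Kif20a, Kif4a and Kif2c, were not called. None of 24 symbols of other transport and ciliary kinesins was called, among them Kif5a and Kif5b, the other heavy chains of conventional kinesin, Kif3a and Kif3b, which form the ciliary motor, and Kif1b. Differences between these relatives and the called genes were not tested. Of 6 symbols for light chains and associated subunits 1 was called, and it was lower (16.7%, beside 4.22% of all tested genes). It was Klc2, a light chain that links conventional kinesin to cargo. It fell in the authors' deposited table from 17.3 to 7.96 FPKM (q = 0.00556, log2 change -1.12), to 46.0% of its LD-low level, beside 40.7% for Kif5c.

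Part of the genes that work with the mitotic kinesins were higher too. The authors' deposited table calls 11 of 32 such symbols, 11 higher and 0 lower, which is 34.4% beside 4.92% of all tested genes. This and the other gene lists were chosen with earlier results of these data known, so their shares are a description and carry no test. They had a median log2 change of 1.03 and ran from 0.86 to 1.26, and all 11 lay within the range of the 5 mitotic kinesins. Only called genes have values here, and no called higher gene had a log2 change below 0.657. The calling thus limits the lower end of both ranges. Prc1, the crosslinker of the spindle midzone, rose in the authors' deposited table from 35.8 to 65.0 FPKM and Anln, a scaffold of the contractile ring, from 17.4 to 32.5 FPKM. Racgap1, the partner of Kif23 in centralspindlin, Cit, which encodes citron kinase, and Ect2, the activator of the contractile ring, were not among the called genes.

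Other called partners belong to the kinetochore and the spindle. Ndc80, the microtubule anchor of the kinetochore, rose in the authors' deposited table from 17.2 to 39.5 FPKM. Knl1, another subunit of the outer kinetochore, stands there as Casc5 and had a log2 change of 1.26. Bub1, a checkpoint kinase, rose in the authors' deposited table from 14.7 to 28.6 FPKM and Cenpf, a large kinetochore protein, from 42.0 to 81.7 FPKM. Nusap1, which bundles spindle microtubules, rose in the authors' deposited table from 18.1 to 37.3 FPKM and Hmmr, a spindle protein, from 25.4 to 48.8 FPKM. The list also held general marks of cycling cells. Of 10 symbols for cycling cells 5 were called, all 5 higher, with log2 changes from 0.96 to 1.17. That is 50%, beside 4.92% of all tested genes called higher. Ccnb1, Ccnb2, Plk1, Aurka and Aurkb were not among the called genes. Mki67, which encodes the Ki-67 antigen, rose in the authors' deposited table from 61.5 to 138 FPKM, Top2a, a topoisomerase of dividing cells, from 41.2 to 84.0 FPKM, and Cdk1, the mitotic kinase, from 20.5 to 44.5 FPKM. The lists share 9 symbols, 4 of them called, and the 7 called partners outside the cycling list had a median log2 change of 0.96.

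Part of the genes listed as axonal partners, which work with neuronal kinesins or form tracks in axons or dendrites, were lower. The authors' deposited table calls 9 of 41 such symbols, 0 higher and 9 lower, which is 22.0% beside 4.22% of all tested genes. As this list too was chosen with earlier results known, the share carries no test. The median log2 change of the 9 called partners was -3.23, and 6 of the 9 fell by more than each of the 4 neuronal kinesins. The partners that were not called have no value here, so the median does not describe the whole list. Mapk8ip2 and Mapk8ip3, scaffolds that link cargo to conventional kinesin, fell in the authors' deposited table from 4.35 to 0.478 FPKM and from 8.26 to 2.74 FPKM. Ppfia2, a liprin of the presynaptic site, fell in the authors' deposited table from 7.12 to 0.760 FPKM and Syt4, a synaptotagmin of vesicles, from 15.5 to 0.983 FPKM. Ulk1, an autophagy kinase, fell in the authors' deposited table from 23.5 to 12.2 FPKM.

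Among the genes of the track, Mapt, which encodes tau, fell in the authors' deposited table from 22.6 to 1.01 FPKM, Tubb3, a neuronal tubulin, from 30.9 to 1.54 FPKM, and Dcx, a microtubule protein of young neurons, from 99.7 to 3.39 FPKM. Map2, a microtubule protein of dendrites, fell in the authors' deposited table from 161 to 80.7 FPKM. These 4 genes also stand in the list of neuron markers, and the 5 called partners outside it had a median log2 change of -3.19. Dynein is the motor that walks the opposite way. Of 32 symbols for cytoplasmic dynein, dynactin and their adaptors 1 was called (3.13%, beside 4.92% of all tested genes higher), the cargo adaptor gene Bicd2, which rose in the authors' deposited table from 24.9 to 40.2 FPKM (q = 0.0406, log2 change 0.69). Axonemal dyneins, which beat cilia, stand outside that list, and how many of them were tested is unknown. Both of their called genes, chosen after their values were seen, were lower. They were Dnah9, a heavy chain that fell in the authors' deposited table from 2.06 to 0.981 FPKM (q = 0.0386), and Dnal1, a light chain that fell from 51.4 to 29.8 FPKM (q = 0.0192).

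**Figure D3:**
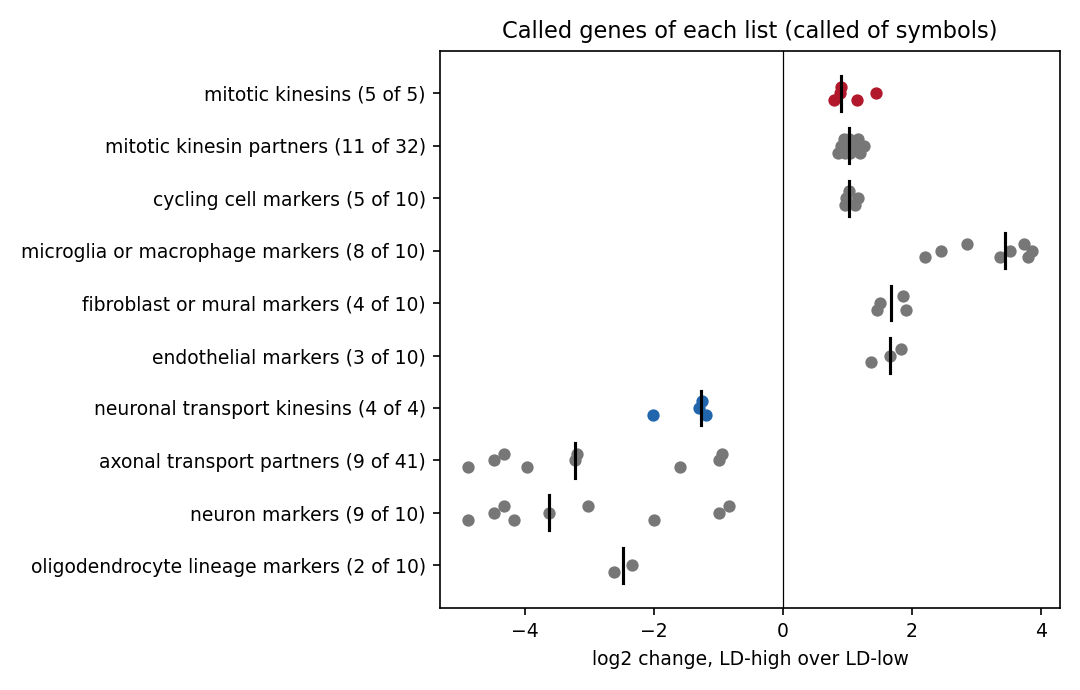
The log2 change (LD-high over LD-low) of the called genes of each list, 1 point a gene, with the median as a black bar and the number called of the number of symbols in brackets. The mitotic kinesins (red) overlap with their partners and with cycling cell markers, whereas most called neuron markers and axonal partners lie farther from 0 than the neuronal kinesins (blue).

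Markers of cell types moved with both sets of motors, and their counts stand beside 4.92% of all tested genes called higher and 4.22% called lower. Of 10 neuron markers 9 were called and all 9 were lower, with a median log2 change of -3.62, and their summed level went in the authors' deposited table from 620 to 185 FPKM. Of these, 6 fell by more than Kif21b and 2 by less than Kif1a. Those 2 were the ones with the highest levels, Map2, at 50.1% of its LD-low level, and Gap43, a growth cone protein, at 55.9%. Of 10 oligodendrocyte lineage markers 2 were called, both lower in the authors' deposited table, Bcas1 (20.7 to 3.37 FPKM) and Pdgfra (5.21 to 1.03 FPKM).

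Of 10 microglia and macrophage markers 8 were called, all 8 higher, with a summed level of 40.2 FPKM in LD-low and 442 FPKM in LD-high glia in the authors' deposited table. All 8 changed by more than each mitotic kinesin. In the authors' deposited table the highest were Fcer1g, a signalling chain of immune receptors (16.8 to 235 FPKM), and Aif1, which encodes Iba1 (5.31 to 71.1 FPKM). Of 10 fibroblast and mural markers 4 were called, all 4 higher (summed level 71.2 to 218 FPKM), led in the authors' deposited table by Col1a1 (39.8 to 113 FPKM) and Postn (14.6 to 55.0 FPKM). Of 10 endothelial markers 3 were called, all 3 higher (summed level 13.0 to 41.0 FPKM), led in the authors' deposited table by Esam (5.16 to 18.3 FPKM) and Eng (4.47 to 14.2 FPKM). Of 10 astrocyte markers 1 was called, the bicarbonate transporter gene Slc4a4, at 16.4 FPKM in LD-low and 28.1 FPKM in LD-high glia in the authors' deposited table, so the label of glia could not be checked on levels of Gfap or Aqp4. No called marker was listed at 0 in either group. The part of these cell types in the levels of the kinesins was not tested.

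The genes nearest to a kinesin in change and level were found by the distance over the log2 change and the log2 mean level, that is over 2 groups. For Kif15 they were, with levels of the authors' deposited table, Mtap (9.40 to 17.5 FPKM) and E2f8 (9.10 to 17.3 FPKM). For Kif18a they were Ehd4 and Xiap, for Kif20b Rnase4 and Itm2a, for Kif23 Farsb and Col4a3bp, and for Kif14 Itga11 and Zfhx3. For Kif3c the nearest was Gria1 (from 19.5 to 8.31 FPKM as the authors' deposited table gives it), a glutamate receptor subunit, and the second was Ptov1. In the authors' deposited table those for Kif5c were Dpysl5 (42.2 to 15.9 FPKM) and Nlgn2 (35.0 to 14.7 FPKM), and for Kif21b Usp29 and Gabra5 (7.61 to 1.82 FPKM). With 1 level per group, such a likeness rests on 2 numbers a gene.

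Promoter windows were read for 7 of the 9 genes from the RefSeq table of the GRCr8 build, from 250 bases before to 50 bases after the annotated start. Kif14 and Kif21b had no entry. Late cell cycle genes are known for a pair of short elements, the CHR, which binds MuvB complexes and was searched as TTTGAA, and the box of the factor NF-Y, searched as CCAAT. Both strands were read throughout, and the motifs were picked after the sequences had been seen. The windows of Kif20b and Kif23 are shown because they hold both elements, which stand in capitals (ATTGG is CCAAT read on the other strand).
Kif20b, chr1:241840766-241841065, plus strand: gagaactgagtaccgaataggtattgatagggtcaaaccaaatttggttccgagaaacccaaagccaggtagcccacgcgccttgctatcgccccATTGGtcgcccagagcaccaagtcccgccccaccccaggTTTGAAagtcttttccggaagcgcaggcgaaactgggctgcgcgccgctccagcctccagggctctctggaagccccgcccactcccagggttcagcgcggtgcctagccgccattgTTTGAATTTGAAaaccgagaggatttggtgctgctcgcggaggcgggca
Kif23, chr8:71320535-71320834, minus strand: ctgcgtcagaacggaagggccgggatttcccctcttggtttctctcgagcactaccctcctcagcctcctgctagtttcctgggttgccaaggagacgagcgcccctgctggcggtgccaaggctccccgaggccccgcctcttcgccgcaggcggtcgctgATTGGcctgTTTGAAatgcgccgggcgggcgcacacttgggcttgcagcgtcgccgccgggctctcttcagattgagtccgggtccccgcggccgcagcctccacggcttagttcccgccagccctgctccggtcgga

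Positions are given by the first base of a match, with +1 at the start and negative values before it. In Kif23 the NF-Y box lay at -88 and the CHR at -79. In Kif20b the NF-Y box lay at -155 and a CHR at -116, and a pair of CHR copies lay directly one after the other from bases 2 to 13 after the start. Kif15 held TTTGAA matches at -249 and -46 and no CCAAT, and Kif18a held neither. Thus 3 of 4 mitotic windows held TTTGAA, beside 18.1% of all 27457 promoter windows, and 2 of 4 held CCAAT, beside 37.7%. Neither was found in the 3 neuronal windows. As the motifs were picked after the sequences had been seen, these shares carry no test. Kif20b and Kif18a had the largest rises among the mitotic members, 1 with 3 TTTGAA matches and 1 with 0.

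For the neuronal genes the search took a segment of RE1, the element bound by REST, a repressor of neuronal genes in other cells, as CAGCACC. The windows of Kif1a and Kif5c are shown because they hold it, in capitals (GGTGCTG is the same on the other strand).
Kif1a, chr9:101094728-101095027, minus strand: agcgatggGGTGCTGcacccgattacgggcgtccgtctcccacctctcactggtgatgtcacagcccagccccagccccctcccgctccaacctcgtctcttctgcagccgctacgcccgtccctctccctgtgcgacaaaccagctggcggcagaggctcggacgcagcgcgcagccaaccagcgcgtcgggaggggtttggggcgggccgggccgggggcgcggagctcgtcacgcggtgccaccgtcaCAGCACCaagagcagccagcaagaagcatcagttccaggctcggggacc
Kif5c, chr3:54441057-54441356, plus strand: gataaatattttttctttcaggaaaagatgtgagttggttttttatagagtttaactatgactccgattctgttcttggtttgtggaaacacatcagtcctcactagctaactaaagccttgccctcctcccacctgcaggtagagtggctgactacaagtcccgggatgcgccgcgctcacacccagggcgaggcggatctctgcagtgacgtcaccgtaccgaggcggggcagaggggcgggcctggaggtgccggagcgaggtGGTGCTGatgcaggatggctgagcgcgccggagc

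Kif1a held it at base 2 after the start and again at -242, Kif5c at base 17 after the start, and Kif3c nowhere in its window. Of the 3 neuronal windows 2 thus held the segment, beside 6.91% of all windows, but so did 1 of the 4 mitotic windows, that of Kif20b, at base 28. A match describes letters and not a bound site, and shares of motifs picked after the sequences had been seen carry no test. The GC box of Sp1, searched as GGGCGG, was in all 7 windows, beside 34.9% of all. The cAMP element TGACGTCA was in Kif15, Kif18a and Kif5c, that is in both sets, beside 1.91% of all windows. The E2F pattern TTTNNCGC was in Kif18a and Kif1a (5.19% of all) and TATAAA in Kif5c (14.3% of all). Pairs of overlapping matches of different motifs numbered 0 in these windows. The windows were 55.7% to 69.7% G and C, with 10 to 30 CG pairs, beside medians of 52.3% and 7 over all windows.

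**Figure D4:**
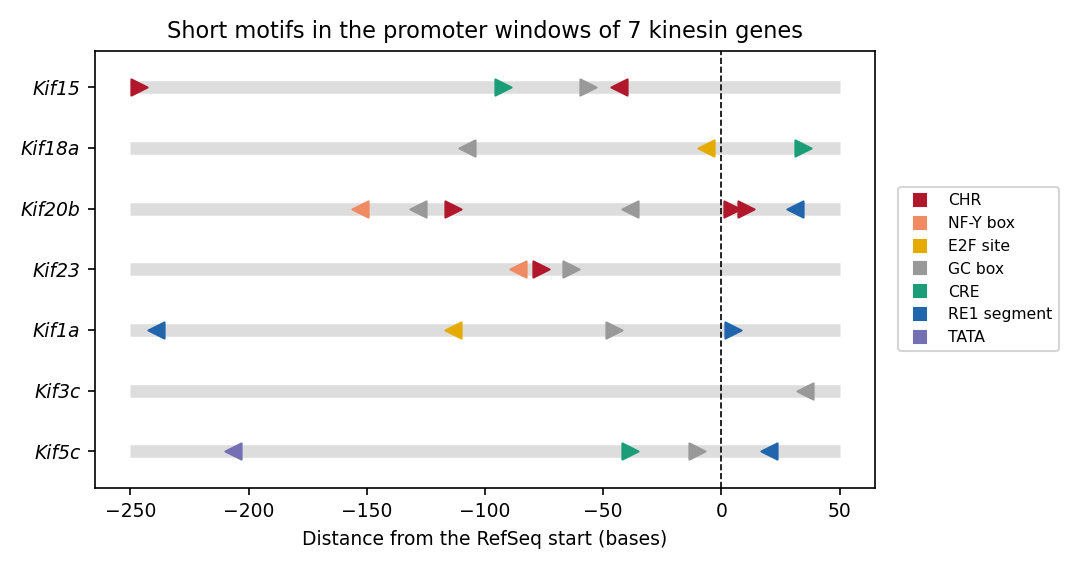
Positions of the 7 motifs in the promoter windows of 7 kinesin genes, in bases from the RefSeq start (dashed line), with the direction of each triangle giving the strand. CHR matches (red) lie in Kif15, Kif20b and Kif23 and RE1 segments (blue) in Kif1a, Kif5c and Kif20b.

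On chromosome 13 a neuronal and a mitotic kinesin are near each other and went in opposite directions. In rn6 the loci of Kif21b and Kif14 are 329 kb apart with 0 called genes between them. Kif21b fell to 24.8% of its LD-low level and Kif14 rose 1.84-fold in the authors' deposited table. Within 500 kb of Kif21b the next called gene was Nav1, a neuron navigator gene that fell in the authors' deposited table from 41.2 to 23.6 FPKM. Within 500 kb of Kif20b the called gene was Lipa, the lysosomal acid lipase gene, which rose in the authors' deposited table from 12.5 to 31.3 FPKM. Kif5c had 1 called gene with a clone name in that distance, and Kif15, Kif18a, Kif23, Kif1a and Kif3c had none.

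The authors' deposited tables of Gene Ontology terms name both cell division and the axon. Of 229 terms listed for the higher genes 6 name mitosis, led by the mitotic cell cycle. That term had p = 7.52e-07 and mitotic sister chromatid segregation p = 0.014 in the authors' deposited table, Bonferroni corrected. Of 104 terms listed for the lower genes 3 name the axon. Axon development had a Bonferroni corrected p = 1.53e-10 in the authors' deposited table, from a test over annotated genes. No listed term of either direction names microtubules or cytokinesis. The tables do not say which genes stand behind a term, so the share of the kinesins in them is unknown, and they use the calls from which the kinesins were picked.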

How the data were processed

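Levels, p-values and q-values are those of the authors' deposited tables, which list called genes only. Reads were processed with Bowtie2 and Cuffdiff on rn6, per the submitters' processing notes; versions, annotation and strand setting: not given in the sources used here. Per the labels' protocols, a kit for very small amounts gave the RNA, and its cDNA was amplified before the libraries were made. The authors deposited 1 level per gene and group, made by Cuffdiff over the 4 samples of a group and taken here as FPKM, since Cuffdiff reports that unit and the headers name none. Log2 changes were recomputed from the level pairs and differed from the deposited log2 values of the higher genes by at most 9.94e-06; 26 genes at 0 in a group have none. The number of tested genes (12981) was recovered as q times rank over p, between 12980.96 and 12981.04 at each distinct p, a step tested on simulated data. No test of expression was run, and the plan for values per sample was not used. Starts were raised by 1, taking Cuffdiff's as counted from 0.

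The kinesins and the 15 gene lists were chosen with earlier results of these data known. Named were all called genes of the kinesin, partner and dynein lists, up to 2 markers per list by level and the 2 genes nearest to each kinesin, of which those for Kif1a are not reported here; other markers and neighbours on a chromosome were chosen after their values were seen. Of the 44 motor symbols 43 are in RefSeq GRCr8. Python 3.11.15, pandas 2.3.3 and matplotlib 3.10.9 were used. Tried as alternatives were a stricter q of 0.01, a minimum log2 change of 1, a minimum of 1 or 5 FPKM in the group with more, and pseudocounts of 0.1 or 1.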

Additional observations from a re-analysis of the deposited data

How the results depend on the processing

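The 5 higher mitotic kinesins came down to 1 at q below 0.01 (2.29% of tested genes higher, 1.98% lower, under that rule). They came down to 2 with a log2 change of at least 1 (3.10% of tested genes higher, 3.14% lower). The 4 neuronal ones stayed at 4 under both. A minimum of 1 FPKM changed no count of kinesins or of any list, and one of 5 FPKM took the axonal partners and the neuron markers from 9 to 8 each and changed no other. With a log2 change of at least 1, the mitotic partners went from 11 to 6. The cycling cell markers went from 5 to 3 under q below 0.01 and under a log2 change of at least 1. The counts for dynein and dynactin and for astrocyte markers went from 1 to 0 under each of these. These counts fell because the rules are stricter on the same values, and the other list counts stayed within 1.5 times. A pseudocount of 0.1 moved the log2 changes of the 9 kinesins by at most 0.051 and one of 1 by at most 0.41 (Kif21b, the lowest level), and none changed its sign. No paired analysis was possible because the tables hold 1 level per group, and for the same reason no replicate could be left out. Depth per sample is unknown.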

Other observations

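Beside the dyneins, the authors called 4 genes with a myosin heavy chain or tubulin symbol, which were looked up after the values had been seen. How many genes with such symbols were tested is unknown. No share can therefore be set beside the 4.92% higher and 4.22% lower of all tested genes. Myo1f, a myosin of immune cells, rose in the authors' deposited table from 0.887 to 6.25 FPKM (q = 0.0133, log2 change 2.82). Myo18a, another myosin, fell in the authors' deposited table from 6.08 to 3.10 FPKM (q = 0.0427, log2 change -0.97). Tubb4a, a beta tubulin of the nervous system, fell in the authors' deposited table from 50.9 to 9.02 FPKM (q = 0.00187, log2 change -2.50), beside Tubb3 as the other called gene with a tubulin symbol. The fall of both tubulins on the log2 scale exceeded that of each neuronal kinesin.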
